A study of Mus musculus with 12 samples.

Results

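The genes that encode the core proteins of the spliceosome's small nuclear ribonucleoproteins (snRNPs) were followed through CD8+ T cell priming with and without costimulation. They were taken as all protein-coding genes whose symbols start with Snrp, Sf3a, Sf3b, Prpf, Lsm or U2af, leaving out Prpf19 and predicted genes, and needed at least 120 counts summed over the 12 libraries. The rule found 49 of the 55536 annotated genes in the count table, and all 49 were among the 18817 genes tested. Just inside the minimum were Snrpn with 704 counts and Lsm14b with 1078, and the gene left out by it was Lsmem1 with 10, which shares only the first letters of its name with the Lsm family.

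The cells were OT-I CD8+ T cells, which carry a transgenic T cell receptor for the ovalbumin peptide SIINFEKL and were bred on a C57BL/6J, Rag-deficient background, in mice aged 1.5 to 8 months. In the Ag and Ag+Costim groups (5 libraries each), naïve OT-I cells were transferred into C57BL/6J recipients, which then received 100 µg of peptide either with rat IgG or with agonist antibodies to CD134 (OX40) and CD137 (41BB), and the OT-I cells were recovered by sorting from both spleen and lymph nodes, after 3.5 days by the study's methods and 4 days by the labels. The Naive group (2 libraries) was OT-I CD8+ T cells purified from OT-I mice that received neither transfer nor injection, so it differs from both other groups in the host as well as in stimulation. The libraries were numbered within each group without naming the animal, and the tests therefore measure the spread between libraries.

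Introns are removed by snRNPs that assemble on each pre-mRNA in turn. U1 reads the 5′ splice site, U2AF reads the polypyrimidine tract and the AG at the 3′ splice site, and U2, through its SF3A and SF3B subcomplexes, binds the branch site. The tri-snRNP of U4, U6 and U5 then joins, and PRPF8, its largest protein, holds the catalytic RNA. Each spliceosomal snRNA except U6 carries a ring of 7 Sm proteins, U6 carries a ring of Lsm2 to Lsm8, a related ring with Lsm1 in place of Lsm8 starts mRNA decay in the cytoplasm, and the U7 snRNP, which cuts histone pre-mRNA, has Lsm10 and Lsm11 in its ring. T cells that leave quiescence are known to grow, divide and make more RNA and protein.

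The libraries held 24006053 to 49294934 gene counts, and Ag 4 was the shallowest. Counts were compared with edgeR's quasi-likelihood test with Benjamini-Hochberg adjustment over all 18817 genes, and a gene was called higher or lower at an adjusted p below 0.05. Levels are CPM, counts scaled to the same library total after TMM normalization, and every log2 fold change is given with its standard error. The T cell markers (Cd3d, Cd3e, Cd3g, Cd8a, Cd8b1, Trac and Trbc2) were all expressed, at 12584 to 13539 summed CPM in Naive, 12117 to 17914 in Ag and 6257 to 8250 in Ag+Costim, and Cd4 was at or below 2.44 CPM. The 8 markers of dividing cells, Mki67 and Top2a among them, summed to 43.8 to 44.1, 637 to 1268 and 2848 to 3749 CPM in the same order, and the 5 erythroid markers to 149.6 to 2068, 625 to 6373 and 14.5 to 222 CPM. The 5 B cell markers summed to 1048 to 1059, 1113 to 1840 and 578 to 1186 CPM, mostly from Ighm, the 5 myeloid markers to 23.9 to 50, 59.6 to 165 and 86.2 to 151 CPM, and the 2 NK cell markers to 11.7 to 13.5, 6.45 to 14.5 and 1.22 to 3.3 CPM. The T cell, dividing-cell, erythroid and NK cell sums did not overlap between Ag and Ag+Costim, and their part in the values below was not tested.

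Adding costimulation to antigen raised the transcripts of most factors that recognize the 3′ splice site and the branch site, and of PRPF8, while of the 18 genes of the Sm and Lsm rings 6 were called higher, 3 lower and 9 were not called. Of the 49 genes, 27 had a called rise from Ag to Ag+Costim and 6 a called fall, where 26.6% of all genes tested were called higher and 26.5% lower. The log2 fold changes had a median of 0.35 over the 49 and -0.05 over all genes. For 23 of the 49 every Ag+Costim library lay above every Ag library, and for 4 every one lay below, against 21.3% and 18.5% of all genes. Upper-quartile scaling moved the median of all genes from -0.05 to -0.24 and gave 21 of the 49 higher and 10 lower, with a median of 0.15 that remained above that of all genes. In bulk libraries fewer cells of a kind and less RNA per cell cannot be told apart.

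**Figure D1:**
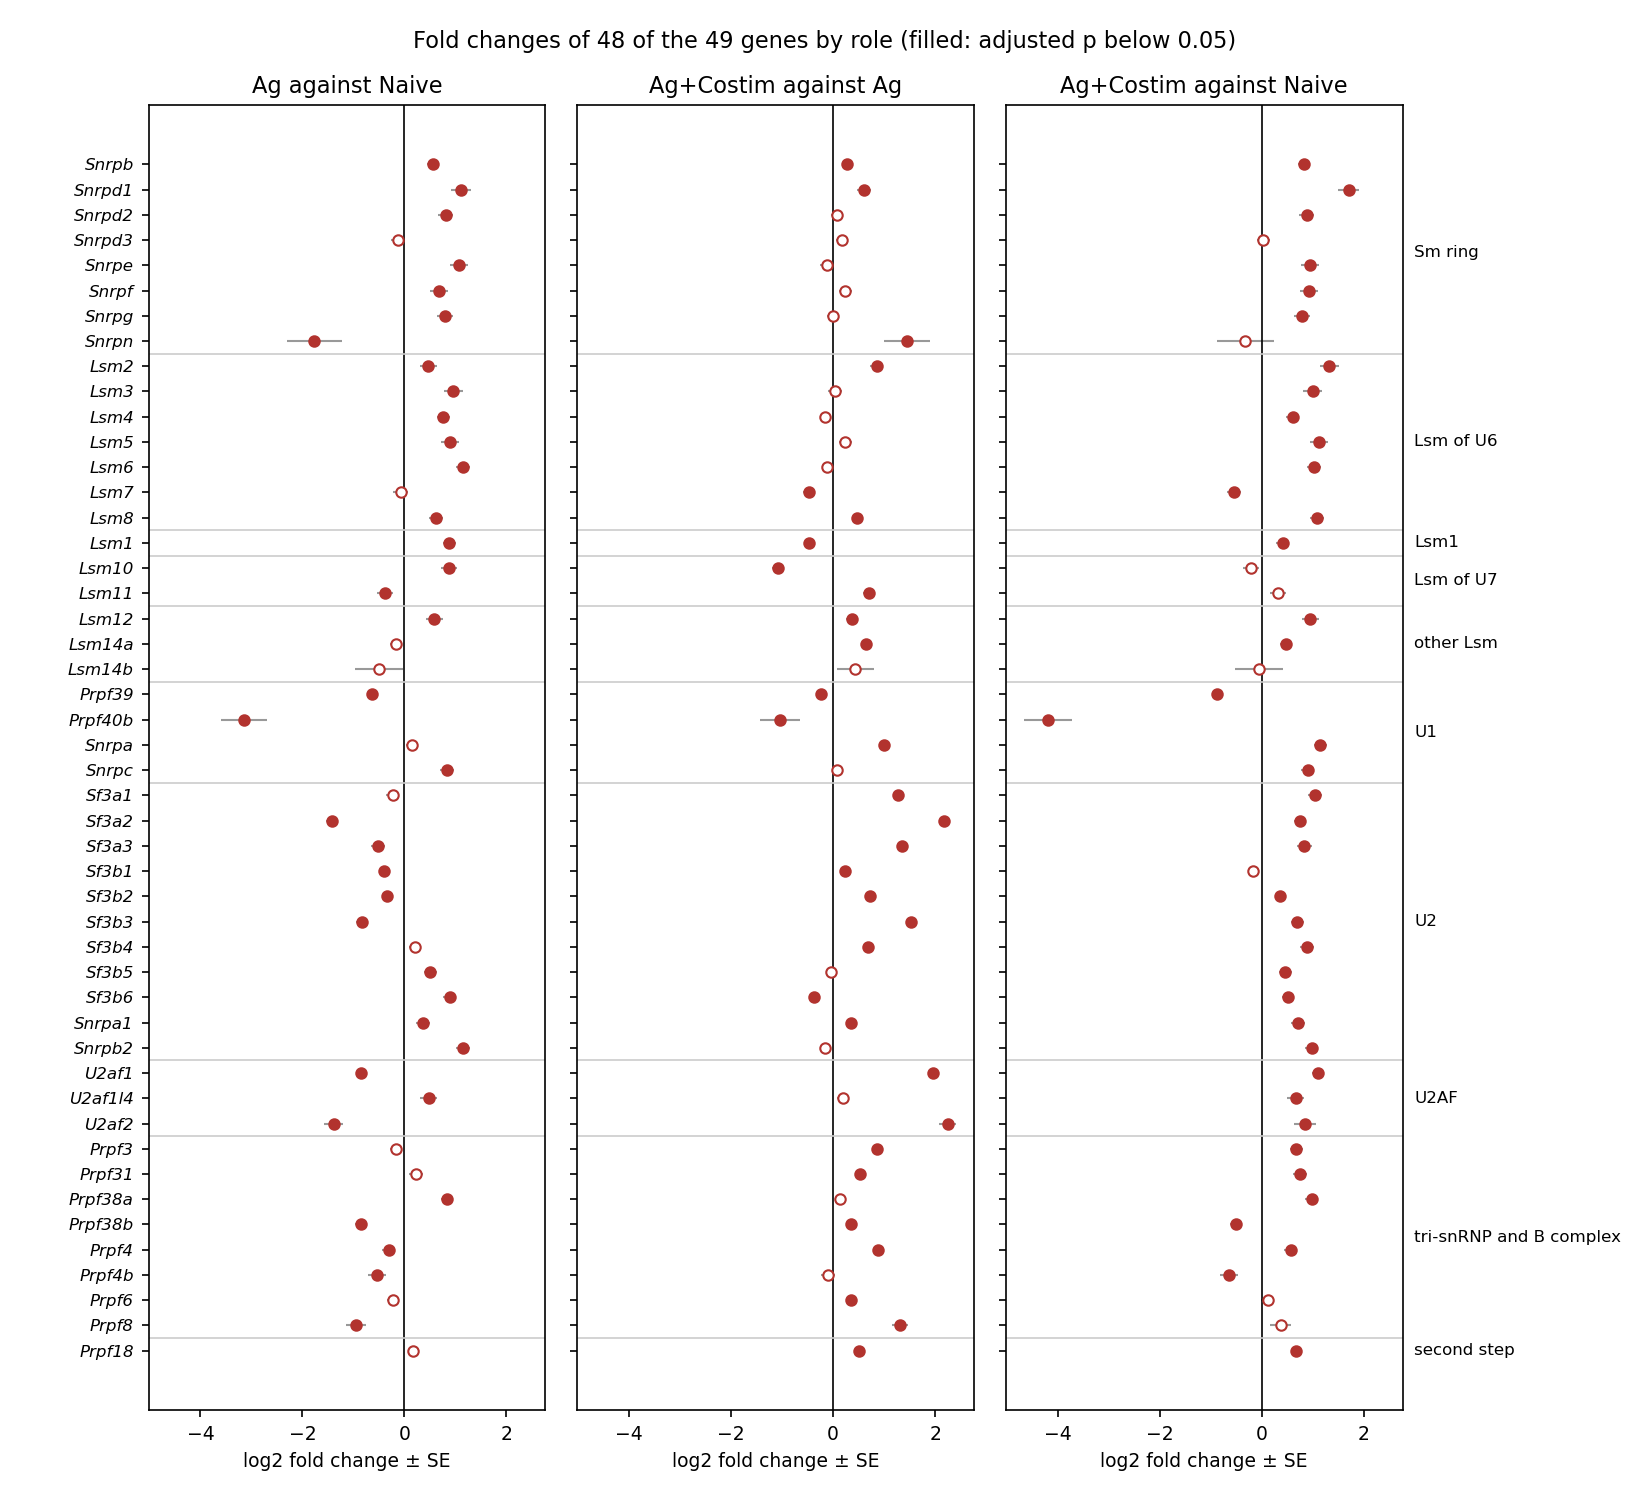
Log2 fold change with its standard error (horizontal axis) of 48 of the 49 genes, ordered by role, in the 3 comparisons; filled points have an adjusted p below 0.05 and open points do not. U2af1, U2af2, the SF3A genes and Prpf8 lie far to the right in Ag+Costim against Ag, while U2af1l4 is an open point near 0. Most Sm and Lsm genes lie to the right in Ag against Naive.

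U2af2, Sf3a2 and U2af1 had the largest fold changes of the 49 genes between the stimulated groups. U2af2, which encodes the large U2AF subunit that binds the polypyrimidine tract, stood at 15.9, 18.8, 15.8, 19.1 and 13.9 CPM in the 5 Ag libraries and at 73.7, 114, 76.5, 62.8 and 68.9 CPM in the 5 Ag+Costim libraries. It was 4.74-fold higher with costimulation (log2 fold change 2.25 ± 0.16 (SE), adjusted p = 1.34e-07), and its lowest Ag+Costim library was over 3 times its highest Ag library. U2af1, whose product reads the AG itself, stood at 40.5, 34.0, 44.2, 37.5 and 35.2 CPM in Ag and at 149.7, 150.2, 157, 135 and 152 CPM in Ag+Costim. The groups lay far apart here too, with a 3.88-fold difference (log2 fold change 1.96 ± 0.09 (SE), adjusted p = 4.16e-09). The related gene U2af1l4, which encodes a shorter relative of the small subunit, was not called (log2 fold change 0.20 ± 0.12 (SE), adjusted p = 0.188), and its libraries overlapped. Without Ag+Costim 4 it was called at 0.29 (adjusted p = 0.0483).

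All 3 SF3A genes rose. Sf3a2, the subunit between the other two and the SF3B side of U2, stood at 22.6, 24.7, 28.2, 25.8 and 24.0 CPM in Ag and 102, 126, 122, 99.4 and 114 CPM in Ag+Costim, a 4.5-fold difference (log2 fold change 2.17 ± 0.09 (SE), adjusted p = 3.62e-09). The kit does not mark the strand of a read, so reads of Sf3a2 and of Plekhj1, which it overlaps on the opposite strand, cannot be told apart in the shared part. Sf3a3 stood at 81.7, 95.7, 104, 82.2 and 115 CPM in Ag and 241, 261, 265, 209.6 and 248 CPM in Ag+Costim (log2 fold change 1.36 ± 0.11 (SE), adjusted p = 2.66e-07). Sf3a1 stood at 70.3, 70.9, 73.9, 75.9 and 74.5 CPM in Ag, a narrow range, and at 165, 217, 184, 149.9 and 172 CPM in Ag+Costim (log2 fold change 1.28 ± 0.09 (SE), adjusted p = 1.51e-07). None of the 3 genes had overlapping groups.

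SF3B was less uniform. Sf3b3, the propeller-shaped scaffold protein of the complex, stood at 157, 169, 143, 176 and 162 CPM in Ag and 450.2, 551, 497, 401 and 444 CPM in Ag+Costim and was 2.9-fold higher (log2 fold change 1.54 ± 0.09 (SE), adjusted p = 4.41e-08). Its gene holds the small nucleolar RNA gene Snord111 and overlaps Cog4 on the opposite strand, and how reads there were assigned was not tested. Sf3b2 and Sf3b4, which flank the branch site, were higher by 0.72 ± 0.07 and 0.68 ± 0.09 on the log2 scale without overlap of the groups. Sf3b1, the large subunit that clamps the branch-site helix, rose only by 0.24 ± 0.07 (adjusted p = 0.0122), from 597, 577, 518, 562 and 618 CPM in Ag to 629.9, 687, 685, 720.1 and 666 CPM in Ag+Costim. This Sf3b1 call was lost with upper-quartile scaling (0.04, adjusted p = 0.642) and with the authors' FPKM values as log2(FPKM + 1) (0.08, adjusted p = 0.373). With a correction for transcript length Sf3b1 was called lower (-0.20, adjusted p = 0.0335). The small subunits went otherwise: Sf3b5 was not called (-0.05 ± 0.10), and Sf3b6, the p14 protein that touches the branch point adenosine, fell by 0.37 ± 0.09 on the log2 scale (adjusted p = 0.004), but was not called with a correction for transcript length (-0.11, adjusted p = 0.239). The Sf3b6 libraries stood at 251, 209, 283, 222 and 225 CPM in Ag and at 191, 165, 186, 184 and 198 CPM in Ag+Costim, with every Ag+Costim library below every Ag library. Of the pair of proteins that bind the U2 snRNA loop, Snrpa1 (U2 A′) was higher by 0.35 ± 0.10 with overlapping libraries, and Snrpb2 (U2 B″) was not called (-0.16 ± 0.10). With upper-quartile scaling Snrpa1 was not called (0.15, adjusted p = 0.236) and Snrpb2 was called lower (-0.36, adjusted p = 0.00775). Snrpb2 was also called lower with log2(FPKM + 1) (-0.21, adjusted p = 0.0434). In all, 8 of the 11 U2 genes were called higher and 1 lower, with a median of 0.68, where 26.6% and 26.5% of all genes were called.

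**Figure D2:**
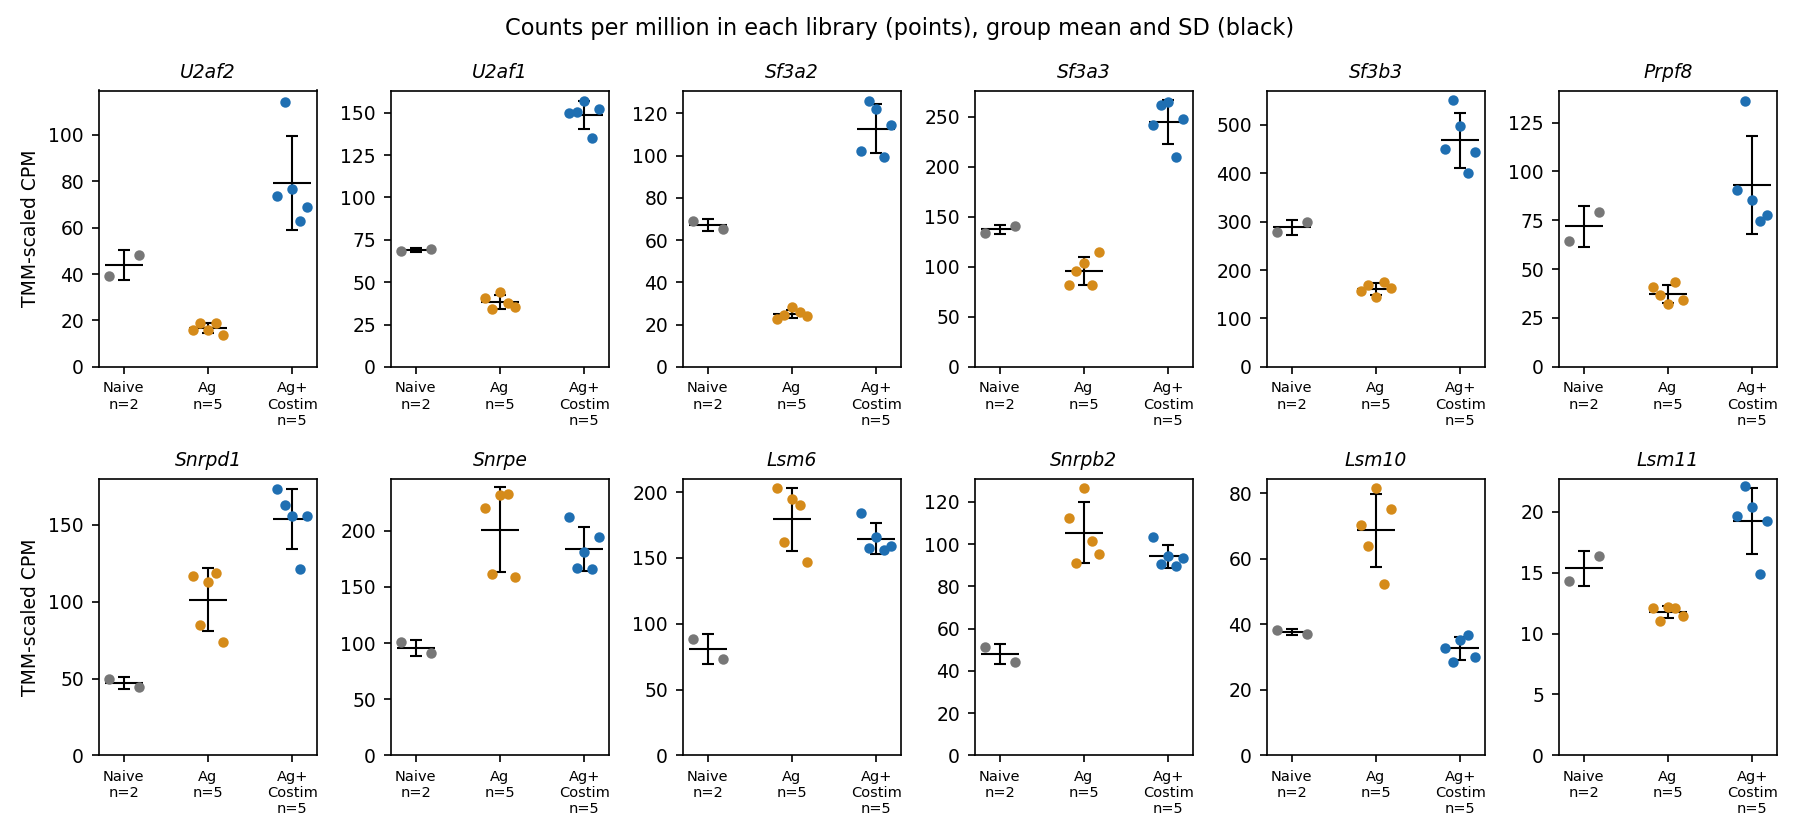
CPM (vertical axis, from 0) of 12 genes in the Naive (n = 2), Ag (n = 5) and Ag+Costim (n = 5) libraries; points are libraries and black bars the group mean and SD. The 6 genes of the top row are lowest in Ag and highest in Ag+Costim by group mean, while Snrpe, Lsm6 and Snrpb2 are low in Naive only.

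Among the tri-snRNP and B complex genes, 6 of 8 were called higher, against 26.6% of all genes, and the other 2 were not called. Prpf8 led them, at 40.7, 36.6, 32.0, 43.5 and 34.0 CPM in Ag and 90.4, 136, 85.6, 74.9 and 77.9 CPM in Ag+Costim (log2 fold change 1.32 ± 0.16 (SE), adjusted p = 1.08e-05). Ag+Costim 2 was the highest library for Prpf8, as it was for U2af2 and Sf3b3, and the remaining Ag+Costim libraries also lay above all 5 Ag libraries. Prpf4 (0.88 ± 0.09), Prpf3 (0.85 ± 0.09) and Prpf31 (0.53 ± 0.10), whose products hold U4 and U6 together, were higher without overlap of the groups. Prpf6, a bridge between U5 and U4/U6, and Prpf38b rose by 0.35 ± 0.10 and 0.35 ± 0.08, the former not with the correction for length (0.17, adjusted p = 0.1). Neither was called with upper-quartile scaling (0.15 for each, adjusted p = 0.149 for Prpf6 and 0.135 for Prpf38b). Prpf38a, which enters with the B complex, and the kinase gene Prpf4b were not called (0.15 ± 0.09 and -0.10 ± 0.14). Prpf18, which acts at the second catalytic step, rose by 0.50 ± 0.07 (adjusted p = 3.01e-05).

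The U1 genes divided. Snrpa, the U1 protein that binds a loop of the snRNA, stood at 90.0, 94.1, 86.0, 81.0 and 71.4 CPM in Ag and 171, 179, 179.8, 146 and 165 CPM in Ag+Costim (log2 fold change 0.99 ± 0.09 (SE), adjusted p = 8.20e-07), with no overlap of the groups. Snrpc, the U1 protein that steadies the particle on the 5′ splice site, was not called (0.07 ± 0.09). Prpf39 fell by 0.24 ± 0.08 on the log2 scale (adjusted p = 0.0151), from 95.5, 111, 96.3, 103 and 109.7 CPM to 82.6, 84.5, 82.0, 95.1 and 91.5 CPM, with the groups just apart, and was not called with a correction for GC content (-0.12, adjusted p = 0.292). Prpf40b was near the lower end of detection, at 1.89, 3.0, 0.839, 1.46 and 1.35 CPM in Ag and 0.427, 1.46, 0.6, 1.16 and 0.467 CPM in Ag+Costim. Its call as lower (log2 fold change -1.05 ± 0.39 (SE), adjusted p = 0.0382) rested on overlapping libraries and was lost without any 1 of Ag 1, Ag 2, Ag+Costim 1, Ag+Costim 3, Ag+Costim 5 or Naive 1, with adjusted p of 0.0515 to 0.122.

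In the Sm ring 3 of 8 genes, Snrpd1, Snrpb and Snrpn, were called higher with costimulation, against 26.6% of all genes. With the correction for length Snrpf, Snrpd2, Snrpg and Snrpe were called higher too, as given with that correction. Snrpd1, which encodes SmD1, stood at 117, 84.9, 113, 119 and 73.9 CPM in Ag and 173, 163, 156, 122 and 156 CPM in Ag+Costim (log2 fold change 0.60 ± 0.14 (SE), adjusted p = 0.00238), with the lowest Ag+Costim library only just above the highest Ag library. Snrpb was higher by 0.26 ± 0.09 with overlapping libraries, and its adjusted p was 0.0565 without Ag+Costim 3, 0.172 with a correction for GC content and 0.533 with upper-quartile scaling. The other 5 partners in the ring were not called, at 0.07 ± 0.11 for Snrpd2, 0.17 ± 0.10 for Snrpd3, -0.13 ± 0.12 for Snrpe, 0.24 ± 0.13 for Snrpf and -0.00192 ± 0.11 for Snrpg. Snrpd3 was called without Ag 3 (log2 fold change 0.25, adjusted p = 0.0328). Snrpn, an imprinted relative of Snrpb best known from neurons, was close to absent, at 0.505, 0.403, 0.163, 1.46 and 0.746 CPM in Ag and 2.21, 2.04, 1.29, 1.54 and 1.71 CPM in Ag+Costim (log2 fold change 1.45 ± 0.45 (SE), adjusted p = 0.015), and it shares exons with Snurf, so its reads are of uncertain assignment.

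Within the Lsm ring of U6, Lsm2 and Lsm8 rose and Lsm7 fell. Lsm2 stood at 62.0, 47.0, 66.3, 58.3 and 42.8 CPM in Ag and 109, 102, 109, 78.9 and 102 CPM in Ag+Costim (log2 fold change 0.86 ± 0.13 (SE), adjusted p = 7.38e-05). Lsm8, the member that sets the nuclear ring apart from the decay ring, stood at 74.6, 64.3, 69.8, 62.9 and 53.1 CPM in Ag and 99.5, 85.7, 92.4, 79.2 and 91.4 CPM in Ag+Costim (log2 fold change 0.47 ± 0.10 (SE), adjusted p = 0.00106). Neither gene had overlapping groups. Lsm7 fell by 0.47 ± 0.11 on the log2 scale (adjusted p = 0.00265) with overlapping libraries, and with a correction for transcript length it was not called (-0.13, adjusted p = 0.227). Lsm3, Lsm4, Lsm5 and Lsm6 were not called, with log2 fold changes from -0.15 ± 0.09 for Lsm4 through -0.12 ± 0.10 for Lsm6 and 0.04 ± 0.13 for Lsm3 to 0.24 ± 0.13 for Lsm5.

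Lsm1 and Lsm8, which take the same seat in the rings of cytoplasm and nucleus, thus moved in opposite directions. Lsm1 stood at 123, 109.9, 139, 98.3 and 128 CPM in Ag and 92.3, 79.4, 90.3, 82.7 and 87.7 CPM in Ag+Costim (log2 fold change -0.47 ± 0.09 (SE), adjusted p = 8.97e-04), with every Ag+Costim library below every Ag library. Of 8 listed partners of the Lsm1 ring in mRNA decay, 7 were found by symbol, and Pat1b was not matched and has no value here. Among these 7, 5 were called higher, against 26.6% of all genes, Dcp2 and Dcp1b were not (0.15 ± 0.10 and -0.25 ± 0.16), and the median was 0.66. The decapping scaffold gene Edc4 (1.48 ± 0.11), the exonuclease gene Xrn1 (1.20 ± 0.14) and Dcp1a (0.97 ± 0.12) led these. Lsm14a, a protein of P-bodies, rose by 0.64 ± 0.08. Lsm12 rose by 0.37 ± 0.12, but was not called with upper-quartile scaling (0.17, adjusted p = 0.254). Lsm14b was not called (0.44 ± 0.37). Without Ag 4, whose 3.84 CPM was the highest of all libraries for Lsm14b, that value became 0.90 (adjusted p = 0.0125).

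The U7 pair split as well. Lsm10 stood at 70.4, 64.0, 81.6, 52.4 and 75.1 CPM in Ag and 32.9, 28.3, 35.1, 36.7 and 30.1 CPM in Ag+Costim, the lowest point estimate among the 49 genes (log2 fold change -1.08 ± 0.12 (SE), adjusted p = 4.90e-06). Lsm11, its neighbour in the U7 ring, stood at 12.1, 11, 12.2, 12.1 and 11.4 CPM in Ag and 19.6, 22.1, 20.4, 14.9 and 19.2 CPM in Ag+Costim (log2 fold change 0.71 ± 0.12 (SE), adjusted p = 1.49e-04). Neither gene had overlapping groups, and they moved in opposite directions. All 3 of their partners in histone pre-mRNA processing were called higher, against 26.6% of all genes. Slbp, the stem-loop binding protein, rose by 0.69 ± 0.09, Zfp473 by 1.87 ± 0.29 and Casp8ap2, which encodes FLASH, by 1.28 ± 0.10. The dividing-cell markers rose over the same libraries, as given above.

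Most Sm and Lsm genes were higher in Ag than in Naive, while U2af1, U2af2, Sf3a2, Sf3b3 and Prpf8 were lower. These groups also differ in transfer and host, which cannot be told apart from antigen here. The Ag libraries enter both this comparison and the preceding one, so the sets of values are not independent of each other, and they are given side by side. Against Naive, 22 of the 49 genes were called higher in Ag and 15 lower, where 24.2% and 22.5% of all genes were. The median was 0.17 against 0.02 over all genes. Sm ring genes were called higher in 6 of 8 cases and U6 Lsm genes in 6 of 7, with medians of 0.74 and 0.76, while the medians of U2, U2AF and the tri-snRNP and B complex were -0.23, -0.85 and -0.27. With only 2 Naive libraries, leaving out 1 library changed the call of 14 of the 49 genes in this comparison.

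Among the genes higher in Ag than in Naive, Lsm6 stood at 88.8 and 73.0 CPM in Naive and 203, 162, 195, 190.1 and 147 CPM in Ag (log2 fold change 1.15 ± 0.14 (SE), adjusted p = 2.45e-05). Snrpb2 stood at 51.2 and 44.4 CPM in Naive and 112, 91.2, 127, 101 and 95.1 CPM in Ag (log2 fold change 1.14 ± 0.14 (SE), adjusted p = 1.64e-05). Snrpd1 stood at 49.9 and 44.5 CPM in Naive (log2 fold change 1.10 ± 0.20 (SE), adjusted p = 4.41e-04), below all of the Ag values given above. Snrpe, at 101 and 90.8 CPM in Naive and 220.0, 162, 232, 232 and 159 CPM in Ag, was 2.1-fold higher (log2 fold change 1.07 ± 0.18 (SE), adjusted p = 2.36e-04). For all 4 genes both Naive libraries lay below all 5 Ag libraries. Snrpc (0.83 ± 0.13), Prpf38a (0.83 ± 0.12), Lsm1 (0.88 ± 0.13) and Lsm10 (0.87 ± 0.16) were the leading risers of their roles. U2af1l4 was called higher (0.47 ± 0.16), but not without Ag 3 (adjusted p = 0.0556) or without Naive 1 or Naive 2 (0.172 and 0.116).

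Among the genes lower in Ag than in Naive, Sf3a2 stood at 69.2 and 65.0 CPM in Naive (log2 fold change -1.42 ± 0.11 (SE), adjusted p = 5.47e-07) and U2af2 at 39.2 and 48.4 CPM (log2 fold change -1.39 ± 0.19 (SE), adjusted p = 6.69e-05). Prpf8 stood at 64.5 and 79.2 CPM in Naive (log2 fold change -0.94 ± 0.20 (SE), adjusted p = 0.00158), U2af1 at 68.2 and 69.7 CPM (log2 fold change -0.85 ± 0.11 (SE), adjusted p = 2.64e-05) and Sf3b3 at 278 and 299.9 CPM (log2 fold change -0.84 ± 0.12 (SE), adjusted p = 7.18e-05). In each of these 5 genes both Naive libraries lay above all 5 Ag libraries. Sf3a3 (-0.52 ± 0.13), Sf3b1 (-0.41 ± 0.09) and Sf3b2 (-0.35 ± 0.09) were also called lower. Without Naive 2 the calls of Sf3a3 and Sf3b2 were lost (adjusted p = 0.0661 and 0.0533), and with the correction for length Sf3b2 came to -0.08 (adjusted p = 0.419). The steepest fall was that of Prpf40b, which stood at 17.7 and 12.6 CPM in Naive and at or below 3.0 CPM in every Ag library (log2 fold change -3.15 ± 0.46 (SE), adjusted p = 9.36e-05). Prpf38b, at 148 and 156 CPM in Naive and 75.4, 80.2, 78.0, 95.0 and 90.3 CPM in Ag, fell by 0.86 ± 0.10 on the log2 scale without overlap. Prpf39, at 155 and 167 CPM in Naive, fell by 0.64 ± 0.10, also without overlap, but was not called with the correction for GC content (-0.18, adjusted p = 0.219) or for length (-0.23, adjusted p = 0.0534). Snrpn, which is close to absent, fell by 1.76 ± 0.55. Prpf4b (-0.54 ± 0.18), Prpf4 (-0.31 ± 0.12) and Lsm11 (-0.38 ± 0.15) were called lower by narrower margins, and each lost its call without Naive 1 and without Naive 2. Prpf4 and Lsm11 remained called only without Ag 4, without Ag+Costim 2 or without Ag+Costim 4 when single libraries were left out.

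Set against Naive, Ag+Costim cells carried more of nearly every role. Of the 49 genes, 36 were called higher and 5 lower, where 26.9% and 25.4% of all genes were, and the median was 0.72 against -0.02. Medians by role were 0.85 for the Sm ring, 1.02 for the U6 Lsm ring, 0.72 for U2, 0.85 for U2AF and 0.47 for the tri-snRNP and B complex. Snrpd1 had the largest rise (log2 fold change 1.71 ± 0.20 (SE), adjusted p = 1.27e-05), followed within their roles by Lsm2 (1.33 ± 0.18), Snrpa (1.15 ± 0.12), U2af1 (1.11 ± 0.12), Sf3a1 (1.05 ± 0.13) and Prpf38a (0.98 ± 0.13). U2af2 was higher than in Naive (0.85 ± 0.21, adjusted p = 0.00423), and without Naive 1 the adjusted p was 0.0724. Prpf8 was not called here (0.37 ± 0.21), and neither was Sf3b1 (-0.17 ± 0.09). Sf3b1 was called lower with upper-quartile scaling (-0.32, adjusted p = 0.00927) and with log2(FPKM + 1) (-0.64, adjusted p = 1.16e-04). With log2(FPKM + 1) the higher calls of Lsm1, Sf3b2, Sf3b3, Sf3b5, Lsm14a and Prpf4 were lost. Over the alternatives other than leaving out a library, 28 to 38 of the 49 genes were called higher. The 5 genes called lower were Prpf40b (-4.19 ± 0.47), Prpf39 (-0.88 ± 0.10), Prpf4b (-0.64 ± 0.18), Lsm7 (-0.54 ± 0.14) and Prpf38b (-0.51 ± 0.10). Lsm10 and Lsm11 were not called against Naive (-0.21 ± 0.15 and 0.33 ± 0.15).

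Further snRNP proteins have symbols outside the chosen prefixes. Of 30 such genes, 15 were called higher in Ag+Costim than in Ag and 8 lower, against 26.6% and 26.5% of all genes, with a median of 0.23. Snrnp200, the helicase that unwinds U4 from U6, was at 35.3 ± 3.84 CPM in Ag and 186 ± 48.9 CPM in Ag+Costim (SD, n = 5), a log2 fold change of 2.40 ± 0.15. Snrnp70, the U1 protein U1-70K, was higher by 1.72 ± 0.09, the branch point binding protein gene Sf1 by 1.60 ± 0.10 and Eftud2, the U5 GTPase, by 1.56 ± 0.10. Phf5a, a small SF3B subunit like Sf3b5 and Sf3b6, was not called (0.12 ± 0.11). The 8 genes called lower, close to the share of all genes, included Zmat5, Pdcd7 and Snrnp48 (-1.22 ± 0.12, -1.03 ± 0.18 and -0.76 ± 0.10), which encode proteins of the minor, U12-type spliceosome, as does Rnpc3 (-0.36 ± 0.10). Snrnp35 of the same particle was higher (0.43 ± 0.15), and Snrnp25 and Zrsr2 were not called (-0.13 ± 0.10 and -0.16 ± 0.09). These minor-spliceosome genes were put together after their values were seen and were not a list of their own. The other genes called lower among the 30 were Ddx23 (-0.75 ± 0.23), Luc7l3 (-0.54 ± 0.14), Rbm25 (-0.51 ± 0.07) and Snrnp27 (-0.51 ± 0.10).

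Among 21 genes of snRNP assembly and import, 9 were called higher in Ag+Costim than in Ag and 3 lower, against the same shares of all genes, with a median of 0.23. The large subunits of the SMN complex rose: Gemin5, which recognizes the snRNA, by 2.20 ± 0.19, Gemin4 by 1.89 ± 0.15 and the helicase gene Ddx20 by 1.08 ± 0.12, as did the small subunit gene Gemin6 (1.05 ± 0.17). Prmt5, which methylates Sm proteins, was higher by 1.05 ± 0.09 and Smn1 itself by 0.50 ± 0.11. Gemin8 and Gemin7 fell (-1.0 ± 0.13 and -0.64 ± 0.09), as did Snupn, the import adaptor (-0.28 ± 0.11).

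Because the Sm and Lsm transcripts are short and those of Prpf8 and Sf3b1 long, the fits were repeated with an offset that removes, library by library, the smooth trend of counts on transcript length. U2af2 (2.34), Sf3a2 (2.25), U2af1 (2.23), Sf3a3 (1.54), Sf3b3 (1.12) and Prpf8 (0.94) kept log2 fold changes near or above 1 in Ag+Costim against Ag. Genes not called before were called higher, namely Lsm5 (0.61), Snrpf (0.53), U2af1l4 (0.50), Prpf38a (0.39), Lsm3 (0.37), Snrpc (0.33), Snrpd2 (0.32), Snrpg (0.27) and Snrpe (0.24), or lower, namely Prpf4b (-0.51), Sf3b5 (-0.42) and Lsm6 (-0.32). The calls of Lsm7, Sf3b6 and Prpf6 were lost, and Sf3b1 turned to lower (-0.20, adjusted p = 0.0335). In all, 34 of the 49 genes were then higher and 8 lower. In Ag against Naive, U2af2 (-1.42), Sf3a2 (-1.44) and U2af1 (-1.16) were still lower and Snrpd1 (0.79) and Snrpe (0.75) still higher, while Prpf8 came to -0.25 (adjusted p = 0.214), Sf3b3 to -0.37 (adjusted p = 0.00765) and Sf3b1 to 0.22 (adjusted p = 0.0851). There the correction also ended the calls of Lsm2 (0.16), Snrpf (0.37), Snrpa1 (0.10) and U2af1l4 (0.17), and gave calls to Prpf18 (0.51), Prpf31 (0.44), Sf3a1 (0.32) and Lsm7 (-0.38). Prpf4 went from called lower to called higher (0.28, adjusted p = 0.0479). Lsm11 (0.29, adjusted p = 0.138) and Prpf4b (0.10, adjusted p = 0.589) lost their calls as lower and changed sign. In Ag+Costim against Naive it gave calls to Prpf8 (0.69) and Lsm11 (0.58).

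**Figure D3:**
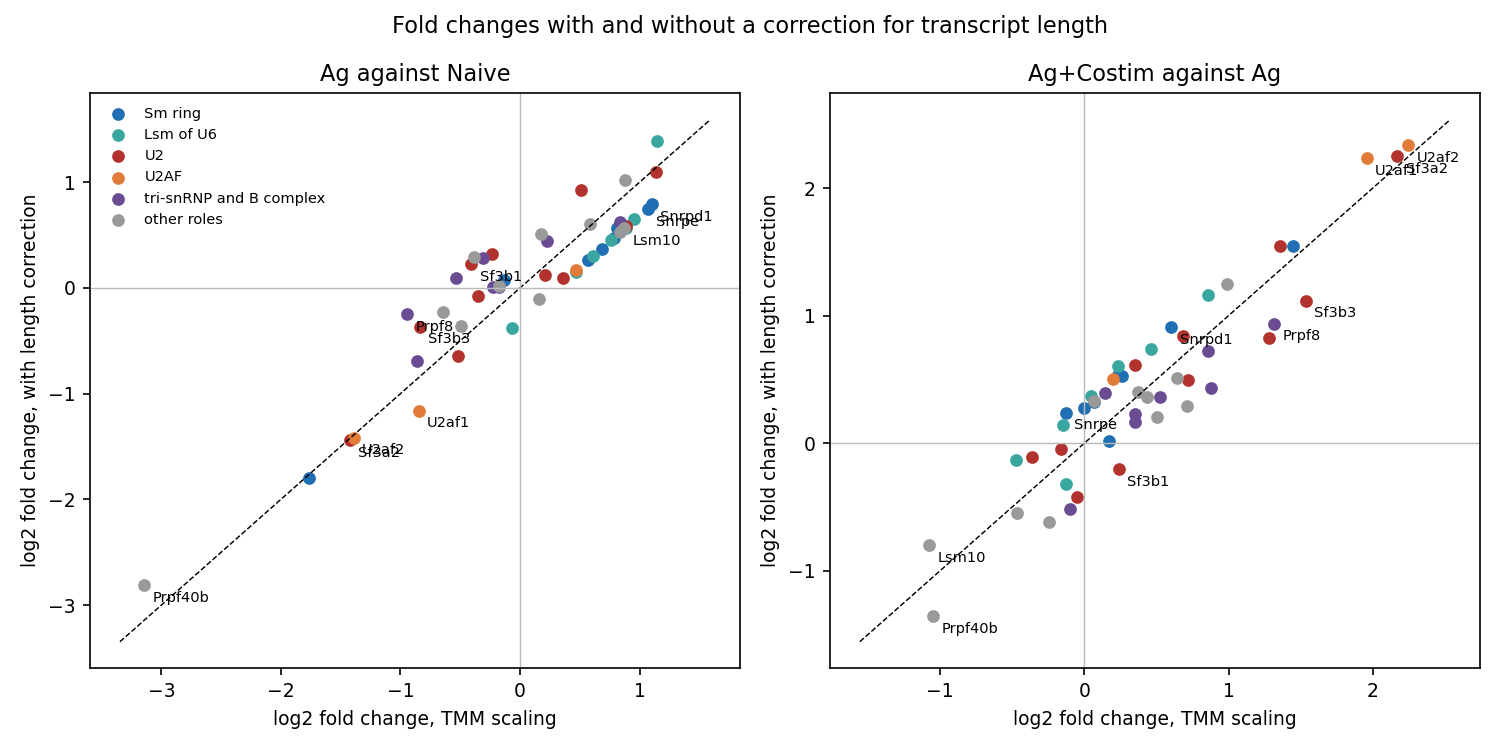
Log2 fold change of 48 of the 49 genes without (horizontal axis) and with (vertical axis) the correction for transcript length, colored by role, in Ag against Naive and Ag+Costim against Ag; the dashed line marks equal values. U2af2, Sf3a2 and U2af1 stay far from 0 on both axes, and Sf3b1 lies across 0 in both panels.

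Levels of different genes can be compared only per length, and for this the authors' FPKM values were summed over the transcripts of a gene. The 7 Sm proteins enter the ring in equal numbers, yet their FPKM means ranged over 7.01-fold in Ag, from 65.0 ± 7.12 for Snrpd3 to 456 ± 34.0 for Snrpb (SD, n = 5). Snrpb was the highest of the 49 genes in each group, at 346 ± 15.3 in Naive and 533 ± 38.5 in Ag+Costim. Lsm4 and Snrpe came next by mean in every group, and in Ag neither Snrpb and Lsm4 (404 ± 49.8) nor Lsm4 and Snrpe (379.7 ± 71.7) differed by more than the sum of their SDs. Of the 3 SF3A genes, Sf3a2 had the middle mean FPKM in Naive (38.5 ± 0.048, n = 2), the lowest in Ag (13.0 ± 1.97, beside 15.9 ± 1.41 for Sf3a1 and 53.8 ± 6.35 for Sf3a3) and again the middle one in Ag+Costim (55.2 ± 7.78, beside 35.1 ± 4.79 and 129.7 ± 10.9). U2af1 exceeded its partner U2af2 in every group, at 37.2 ± 3.62 against 7.83 ± 1.27 in Ag and 141 ± 7.83 against 36.1 ± 9.12 in Ag+Costim.

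**Figure D4:**
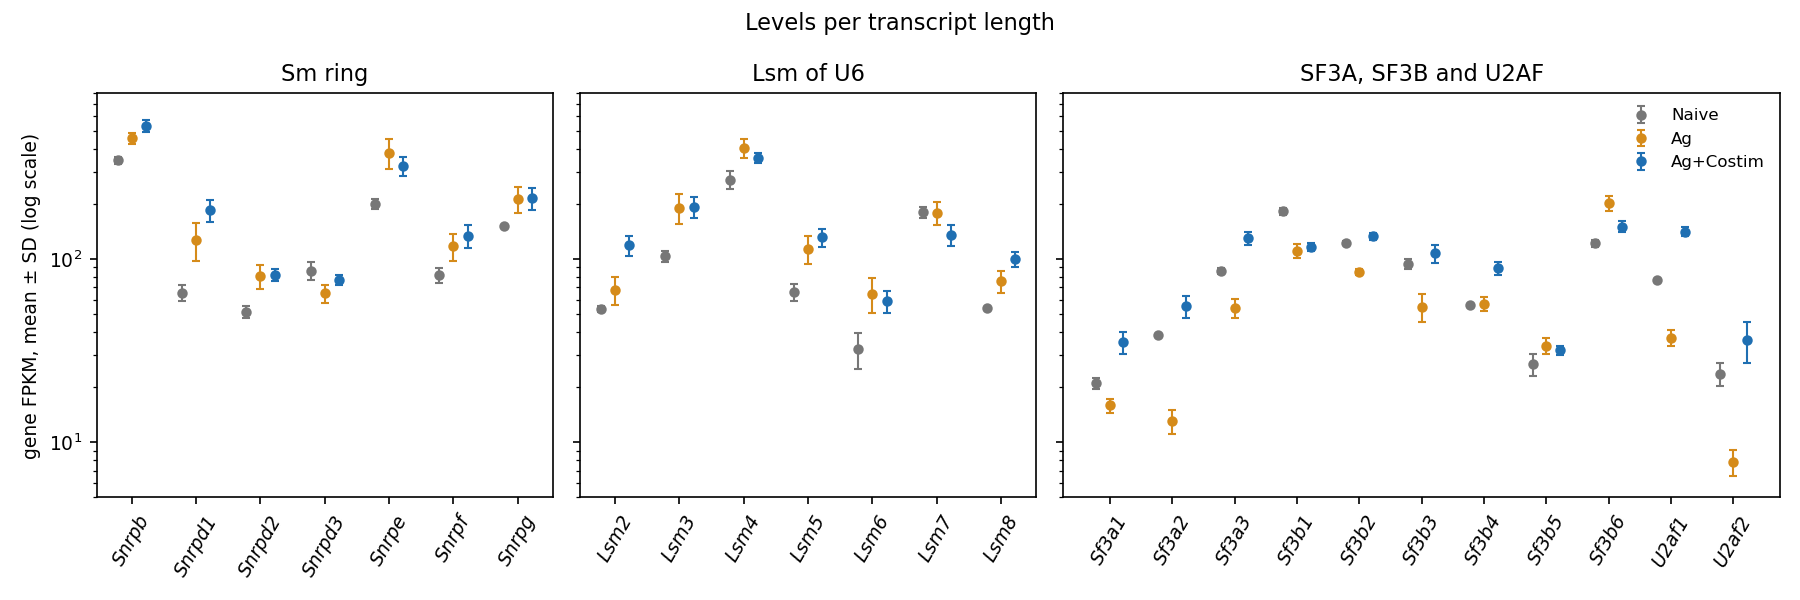
Gene FPKM (vertical axis, log scale), mean and SD of the Naive (n = 2), Ag (n = 5) and Ag+Costim (n = 5) libraries, for the Sm ring, the Lsm ring of U6 and the SF3A, SF3B and U2AF genes. Sf3a2, U2af1 and U2af2 have their lowest means in Ag, and Snrpb has the highest mean of all genes shown.

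The transcript counts gave a second readout, the share of a gene's counts that fell on transcripts annotated as protein_coding rather than as retaining an intron, as targets of nonsense-mediated decay or as other noncoding forms. It could be tested in 43 of the 49 genes and 7484 genes in all, by an exact permutation test of the difference of means over the 5 Ag and 5 Ag+Costim libraries, two-sided. The smallest p this design allows is 0.00794, and with the number of genes tested it corresponds to an adjusted p of 0.0535, so no gene reached an adjusted p of 0.05. This rests on the minimum of 100 counts: with 500, 10 of the 41 genes then tested were called higher and 1 lower, against 13.9% and 1.97% of all genes. Before adjustment, 16 of the 43 had a higher share in Ag+Costim and 2 a lower one at an exact p below 0.05, where 22.4% and 5.04% of all genes did. In 10 of the 43 every Ag+Costim library lay above every Ag library and in 1 below, against 12.9% and 1.96% of all genes. The 1 below was Prpf8, by under 0.1 of a percentage point. The median difference was 0.835 percentage points over the 43 genes and 0.344 over all.

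The largest difference in means was that of Prpf4b, from 49.2% ± 10.7 in Ag to 73.4% ± 10.4 in Ag+Costim (SD, n = 5), with overlapping libraries (exact p = 0.0159, adjusted p = 0.0846). Naive cells stood at 56.7 and 44.1%, and the other counts lay mainly on Prpf4b-208, annotated as a target of nonsense-mediated decay, with 47.2% ± 11.6 in Ag and 24.7% ± 10.6 in Ag+Costim. Among genes whose groups did not overlap, Sf3b3 had the largest difference. Its protein_coding share was 72.2, 77.6, 75.6, 64.8 and 79.2% in the Ag libraries and 94.9, 95.3, 95.8, 94.2 and 94.6% in the Ag+Costim libraries, so costimulated cells had both more Sf3b3 counts and a larger part of them on the coding transcript (exact p = 0.00794). Naive cells lay between, at 82.1 and 80.5%. The difference sat in Sf3b3-205, an annotated intron-retaining transcript of 1409 bases, which held 24.7% ± 5.27 of the counts in Ag and 3.9% ± 0.631 in Ag+Costim (SD, n = 5). Because Sf3b3 contains Snord111, and reads in the shared part cannot be told apart, this share is uncertain.

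Snrpa1 showed a stepwise difference. Its coding share was 48.3 and 34.4% in Naive, 61.9, 59.5, 73.1, 61.5 and 62.6% in Ag and 82.1, 82.5, 84.9, 73.1 and 80.9% in Ag+Costim. The intron-retaining Snrpa1-204 held 34.3% ± 5.0, 17.7% ± 1.91 and 8.96% ± 0.774 of the counts in the same order, and Snrpa1-201, annotated as a target of nonsense-mediated decay, held 24.1% ± 4.87, 18.5% ± 3.88 and 10.2% ± 3.95. Sf3b1 behaved alike, with coding shares of 66.9 and 63.8% in Naive, 81.2, 80.5, 83.4, 76.8 and 82.1% in Ag and 87.2, 89.9, 90.6, 86.7 and 88.3% in Ag+Costim. Its single main alternative was Sf3b1-203, which retains an intron and held 33.2% ± 2.25, 18.2% ± 2.49 and 10.9% ± 1.66. In Snrpa the intron-retaining Snrpa-207 held 13.6% ± 2.24, 6.29% ± 1.46 and 2.06% ± 0.504. By group mean these 3 intron-retaining transcripts were thus highest in Naive and lowest in Ag+Costim, and the Ag and Ag+Costim libraries did not overlap in the coding share of any of the 3 genes. In Snrpa1 the groups were barely apart, with 73.05% in Ag 3 and 73.07% in Ag+Costim 4.

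**Figure D5:**
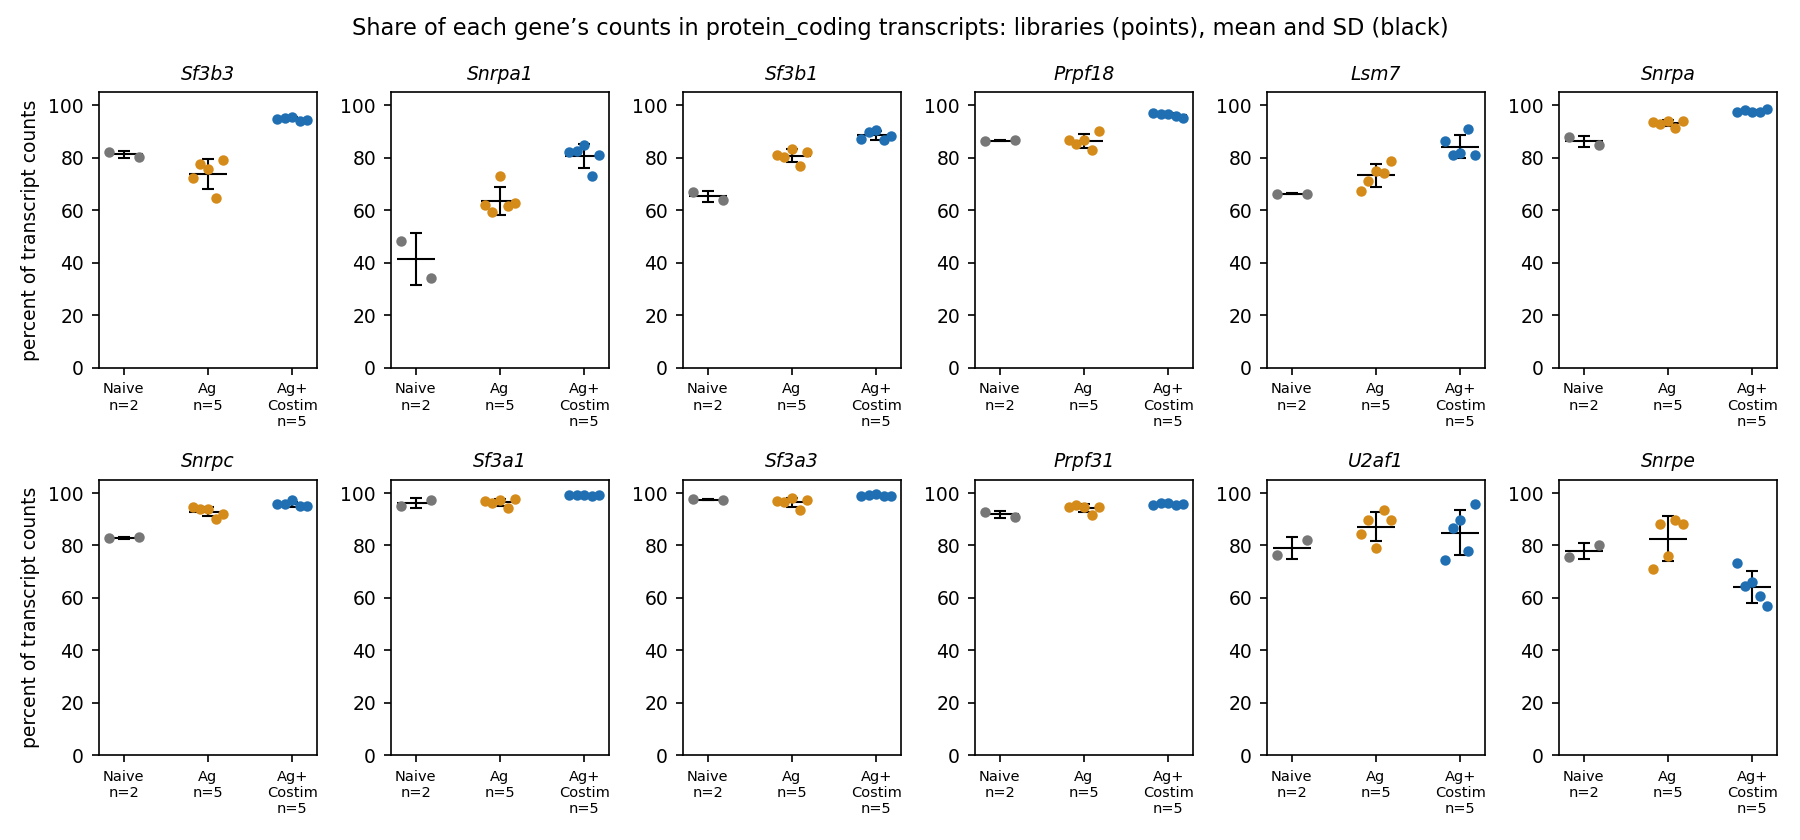
Percent of a gene's transcript counts on protein_coding transcripts (vertical axis, 0 to 100) in each Naive (n = 2), Ag (n = 5) and Ag+Costim (n = 5) library, with the group mean and SD in black. In Sf3b3, Snrpa1, Sf3b1, Prpf18 and Lsm7 every Ag+Costim library lies above every Ag library, and in Snrpe the Ag+Costim mean is the lowest.

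Prpf18 went from 86.4% ± 2.65 in Ag to 96.3% ± 0.726 in Ag+Costim (SD, n = 5), and Lsm7, whose total fell, from 73.3% ± 4.35 to 84.2% ± 4.43. Snrpc, Snrpa, Sf3a1, Sf3a3 and Prpf31 also had separate groups, with Ag+Costim means between 95.7% and 99.2%. Snrpe went the other way, from 82.7% ± 8.49 in Ag to 64.3% ± 6.1 in Ag+Costim, with overlapping libraries (exact p = 0.0159, adjusted p = 0.0846), and Snrpe-206, a target of nonsense-mediated decay, held 17.3% ± 8.49 and 35.7% ± 6.1. U2af1 did not differ beyond its spread (87.1% ± 5.61 and 84.8% ± 8.64, exact p = 0.635), nor did Sf3a2 (99.6% ± 0.284 and 99.7% ± 0.132, exact p = 0.429).

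Intron-retaining transcripts were annotated and counted in 35 of the 49 genes. Their mean share was lower in Ag than in Naive in 33 of 35, all but Sf3b3 and Prpf4b. Counted separately, it was lower in Ag+Costim than in Ag in 26 of 35, Sf3b3 and Prpf4b among them. The same counts over all genes were not made. The median over the 35 genes was 4.95% in Naive, 2.92% in Ag and 1.52% in Ag+Costim, beside 5.0%, 3.16% and 2.32% over all 5823 genes with such transcripts. In 8 of the 35 every Ag+Costim library lay below every Ag library, against 15.3% of all genes, and in 2, Lsm2 and Prpf8, every one lay above, against 2.42%. Lsm2 had 4.32% to 8.03% in Ag and 9.34% to 16.7% in Ag+Costim, with 24.1% and 30.6% in Naive, and Prpf8 stayed under 0.1% throughout. The median fell from Naive to Ag to Ag+Costim over the 35 genes and over all genes alike.

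Some introns kept in these transcripts are given here with their 5′ and 3′ splice sites. They are shown for Sf3b1, Snrpa and Snrpa1, the 3 genes whose intron-retaining transcripts were described above as differing between all 3 groups by mean. Other genes met this too and are not shown, such as Snrpc, whose Snrpc-202 held 17.0%, 7.09% and 4.26% in Naive, Ag and Ag+Costim. Given are 9 exon and 12 intron bases around the 5′ splice site and 28 intron and 9 exon bases around the 3′ splice site. Capitals mark the first and the last pair of intron bases, and sequences and positions are those of GENCODE vM21 on GRCm38. The Sf3b1 intron lies at chr1:55014563-55016375 on the minus strand and has 1813 bases, the Snrpa intron at chr7:27195557-27195993 on the minus strand (437 bases), and the pair kept together in Snrpa1-204 at chr7:66069527-66070118 and chr7:66070199-66070589 on the plus strand (592 and 391 bases).
Sf3b1 5′ splice site: ttgcagatgGTaattctttcc
Sf3b1 3′ splice site: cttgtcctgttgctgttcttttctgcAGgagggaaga
Snrpa 5′ splice site: acggctcagGTggtgggttcc
Snrpa 3′ splice site: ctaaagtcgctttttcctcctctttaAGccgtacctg
Snrpa1 upstream intron, 5′ splice site: aaactcaaaGTgagtattgcg
Snrpa1 upstream intron, 3′ splice site: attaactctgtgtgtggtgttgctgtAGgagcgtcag
Snrpa1 downstream intron, 5′ splice site: aagcaaaacGTaagatacgga
Snrpa1 downstream intron, 3′ splice site: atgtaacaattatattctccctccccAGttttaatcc
All 4 introns begin with GT and end with AG, and of the 20 bases before the AG, where the polypyrimidine tract that U2AF2 binds usually lies, c and t make up 16 in Sf3b1, 18 in Snrpa and 12 and 16 in Snrpa1.

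The deposited Whippet table gives Psi, the fraction of reads that include a node of a gene, as 1 value for Ag and 1 for Ag+Costim, without a spread, so its differences have no test here. Of 492 nodes in 48 of the 49 genes, 18 in 7 genes differed by at least 0.1, or 3.66%, against 7.39% of all nodes. The 10 in genes with at least 1000 counts in every Ag and Ag+Costim library lay in Lsm10, Lsm2 and Prpf8. In Lsm10 the proximal end of the last exon (chr4:126097829-126098581, GRCm38, coding end and 3′ untranslated region) had a Psi of 0.194 in Ag and 0.549 in Ag+Costim, but the alternative end adds only 3 bases. In Lsm2 the use of the outer start node (chr17:34982129-34982158, 5′ untranslated region) was 0.227 and 0.0866. In Prpf8, 6 coding exons between chr11:75487625 and chr11:75496176 had Psi of 0.856 to 0.879 in Ag and 0.966 to 0.982 in Ag+Costim.

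Below that count minimum, and named after their values were seen, stood the start nodes of Sf3a2 and U2af2. The outer start node of Sf3a2 (chr10:80798198-80798731, 5′ untranslated region) had a Psi of 0.179 in Ag and 0.61 in Ag+Costim, the widest difference among the 49 genes. That of U2af2 (chr7:5062143-5062244) had 0.695 and 0.928. A 64-base exon of U2af2 (chr7:5068733-5068796), contained in U2af2-204, annotated as a target of nonsense-mediated decay, and in U2af2-202, annotated as protein_coding, was included at 0.109 in Ag and 0.025 in Ag+Costim.

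The promoters of the genes were searched for 3 motifs on both strands in RefSeq windows on GRCm38.p6 that run from 250 bases before to 50 after each start. 39 of the 49 genes matched by symbol. CCGGAAG, the core bound by Ets-family factors, stood in 14 of the 39, or 35.9%, against 19.5% of 11139 tested genes with a window and 9.93% of all 27025. It stood in 7 of the 20 genes called higher with costimulation and in 7 of the other 19, so its presence was about even between them. CACGTG, the E-box of Myc and its relatives, stood in 10.3% of the 39 and 11.3% of tested genes, and the palindromic NRF1 motif in none of the 39 and 2.23% of tested genes. Windows around a match that overlap no annotated exon are shown for Lsm5, as the example of the motif that was more frequent, and for Snrpa, which had 2 such E-box windows before its start, with the motif in capitals. A further Snrpa E-box, before another start (chr7:27195809-27195844), lies in a window that overlaps annotated exons and is not shown.
Lsm5, chr6:56704887-56704923, minus strand, CCGGAAG read on the opposite strand: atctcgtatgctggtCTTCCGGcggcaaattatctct
Snrpa, chr7:27196324-27196359, minus strand, outer E-box: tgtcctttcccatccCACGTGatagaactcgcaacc
Snrpa, chr7:27196283-27196318, minus strand, inner E-box: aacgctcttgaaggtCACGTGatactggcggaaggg
These matches describe the letters of the windows only, and no binding was measured.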

How the data were processed

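The 12 libraries (5 Ag, 5 Ag+Costim, 2 Naive) were grouped by their labels. The authors aligned 100-base single-end reads of SMART-Seq v4 libraries to mm10 with HISAT2 2.1.0 and quantified them with StringTie 2.1.0, per the labels and the study's methods. The deposited gene and transcript tables hold counts derived from coverage, not normalized, and the deposited FPKM values are scaled by the authors for length and library size. The deposited Psi values are fractions from Whippet, 1 per group, and how replicates were combined is not given in the sources used here; its columns of differences and probabilities were not used. The deposited core sheet gives reads and percent aligned.

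Of 81881 gene entries, 55536 matched GENCODE vM21, and the other 26345, with 0.0508% to 0.121% of counts, were left out. After TMM scaling and filterByExpr, edgeR 4.0.16 (R 4.3.3, limma 3.58.1) fitted the 3 group means over all 12 libraries, and contrasts were tested by quasi-likelihood at an adjusted p of 0.05. The fit was checked on simulated counts. Transcript shares, in genes with at least 100 counts in every Ag and Ag+Costim library and at least 2 transcript types, were compared by exact permutation tests in Python 3.11.15, adjusted over all genes tested in place of the planned adjustment over the 49. Named were, per role and comparison, the called genes with the largest rise and fall whose libraries did not overlap, and every other gene at least once, except 1 that is counted but not reported here by name, nor among single-gene alternatives. Replicates of a group differed by more than sampling noise. Deviations from the group means correlated weakly between same-numbered Ag and Ag+Costim libraries (0.016 to 0.095). Alternatives were upper-quartile scaling, DESeq2 1.42.0, no filter, log2(FPKM + 1) and log2(FPKM + 0.1) in limma, only the 2 groups compared, a replicate block, corrections for transcript length and GC content, and leaving out each library. The genes and lists were chosen with earlier results of these data known. Of the 49 genes 19 overlap another annotated gene, 9 on the same strand. Proteins encoded by the genes were not analysed here.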

Additional observations from a re-analysis of the deposited data

Results flagged for a closer look

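Among 98 groups of 5 libraries (49 genes in Ag and in Ag+Costim), 4 held 1 library far from the others by Dixon's criterion on log2 CPM, and about 1 in 20 is flagged by chance. Lsm2 stood at 6.30 in Ag+Costim 4 and at 6.67 to 6.77 in the other Ag+Costim libraries, all of them above the Ag libraries. Lsm14b, which is barely expressed, stood at 0.83 in Ag+Costim 2 and at 1.28 to 1.46 in the others. Prpf38b stood at 6.64 in Ag+Costim 3 and at 6.75 to 6.78 in the others. Prpf4 stood at 5.77 in Ag 4, the library with the fewest counts, and at 5.46 to 5.54 in the other Ag libraries, and was called higher in Ag+Costim with and without that library.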

How the results depend on the processing

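Of 3156 values of single genes under an alternative, 2950 kept their direction and side of the threshold, 139 lost a call, 59 gained one and 8 reversed. All reversals came with the length correction. In Ag+Costim against Ag they were Snrpe (0.24), Snrpg (0.27) and Sf3b1 (-0.20), and in Ag against Naive Lsm11 (0.29), Sf3a1 (0.32), Sf3b1 (0.22), Prpf4 (0.28) and Prpf4b (0.10). DESeq2 changed no call of the 48 genes compared.

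In Ag+Costim against Ag, upper-quartile scaling gave 10 genes lower and a median of 0.15 (all genes -0.24). In Ag against Naive, the length correction gave 9 lower and a median of 0.27, and log2(FPKM + 1), log2(FPKM + 0.1) and log2(FPKM + 1) without a filter gave medians of 0.011, 0.012 and -0.015, the last reversed. In Ag+Costim against Naive the median was 0.56 with upper-quartile scaling and 0.43, 0.44 and 0.43 with those FPKM settings. The causes were not tested. A minimum of 500 counts for transcript shares tested fewer genes and called 10 of 41 higher and 1 lower (all genes 13.9% and 1.97%), against none of 43 with 100.

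Leaving out 1 library gave 26 to 29 higher, 5 to 6 lower and medians of 0.29 to 0.38 in Ag+Costim against Ag, 16 to 22, 10 to 16 and 0.15 to 0.21 in Ag against Naive, and 32 to 37, 4 to 5 and 0.69 to 0.77 in Ag+Costim against Naive. The median difference in coding share ranged from 0.584 to 1.15 percentage points.

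Same-numbered Ag and Ag+Costim libraries correlated at 0.016 to 0.095, and 3 of 5 Ag libraries correlated best with their own number. Whether the numbers mark pairs cannot be decided from these values, and the main fits did not use them. With a replicate block, 27 genes were higher and 6 lower in Ag+Costim against Ag (median 0.35), 22 and 13 in Ag against Naive (0.24) and 36 and 5 in Ag+Costim against Naive (0.75). The 2 Naive libraries and the lower depth of Ag 4 limit the comparisons that use them.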
